A study of Mus musculus with 68 samples.

Results

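Kidneys of untreated mice were compared with the hearts, lungs and livers of untreated mice to find the genes that set the kidney apart. The 3 untreated kidney libraries are 3 of the 68 libraries of the study, and they were set against the 3 untreated heart, 3 untreated lung and 3 untreated liver libraries. All mice were wild-type C57BL/6J females aged 10 weeks, with no transgene or deletion in any group. The other mice received Egf at 1 mg/kg in phosphate-buffered saline, or saline alone as vehicle, by retro-orbital injection under isoflurane, and gave 4 Egf and 3 vehicle libraries per organ at 2 h and again at 6 h. The untreated organs came from 3 additional mice that were not injected, but the labels do not say which of their libraries share a mouse, so p-values measure the spread between these libraries. Each library is polyadenylated RNA of pulverised whole tissue, so that a lower level from fewer cells of a type and a lower level from less RNA per cell cannot be told apart.

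The kidney filters plasma in the glomerulus, where podocytes form the outer face of the filter, and then recovers most of the filtrate along the tubule. The proximal tubule takes back glucose, amino acids, phosphate, bicarbonate and filtered protein and secretes organic acids and bases. The thick ascending limb and the distal convoluted tubule reabsorb salt, calcium and magnesium. In the collecting duct, principal cells move water and sodium under hormonal control, and intercalated cells secrete acid or base. The kidney also makes renin, activates vitamin D, makes glucose from amino acids and lactate, and is the main site of Egf synthesis outside the salivary gland in the mouse.

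Levels are given as CPM, the reads of a gene relative to the scaled total of its library, or per kilobase of gene model as well (RPKM) where genes are set beside each other. A difference is the fitted log2 of kidney over the mean of heart, lung and liver, with its standard error (SE) and edgeR's adjusted p. A gene was called at an adjusted p under 0.05. A gene is termed set apart where kidney was called in the same direction against that mean and against each of the 3 organs, and set apart 4-fold where the fitted difference also reached 4-fold against each organ. Where an organ had 0 reads of a gene in all its libraries, the fitted difference depends on the fitting method. For such genes the difference is given with that organ placed at a floor of 3 reads over its libraries, and is called a floor value. That floor covers counting error only.

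The libraries held 13271813 to 19949441 reads in genes, and some of them stood apart. The summed level of the tubule markers in heart replicate 2 was 6.36% of the kidney mean, against 0.358% and 0.389% in heart replicates 1 and 3. In lung replicate 3 it was 1.97%, against 0.526% and 0.626% in the other lungs, and in the livers it was 0.745% to 1.29%. Hepatocyte markers reached 8.70% and 8.39% of the liver mean in heart replicates 1 and 3, against 0.711% in heart replicate 2. They reached 0.81% in kidney replicate 1, against 0.11% and 0.105% in kidney replicates 2 and 3. Lung epithelial markers reached 0.671% of the lung mean in heart replicate 1, against 0.00139% and 0.00221% in heart replicates 2 and 3. Cardiomyocyte markers reached 0.0608% of the heart mean in kidney replicate 1, against 0.0053% and 0.00441% in kidney replicates 2 and 3. A kidney gene that is present in 1 heart library and absent from the other 2 has a large spread within heart, which enters its test. Counts are therefore also given without heart replicate 2 and lung replicate 3, and, where it matters, without the hepatocyte-bearing libraries (heart replicates 1 and 3 and kidney replicate 1), which leaves heart replicate 2 as the sole heart. Both alternatives were chosen after seeing the data. The tubule markers summed here are the early proximal tubule and thick ascending limb lists, which include Egf. Higher counts in those lists without heart replicate 2 and lung replicate 3 therefore partly follow from how these libraries were picked. How transcripts of tubule, hepatocytes and other organs came into these libraries was not tested.

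Kidney differed from the mean of the other organs in a large share of the genes. Of 17275 genes tested, 5854 were higher in kidney (33.9%) and 3612 were lower (20.9%), so that 61.8% of the calls were higher. The split depends on the scaling: 75.8% of the calls were higher with library totals alone, which moved the median log2 difference of all genes to 0.36 from 0.10, and 50.5% were higher with DESeq2. Of the genes tested, 2004 were set apart with kidney highest (11.6%) and 739 with kidney lowest (4.28%). By the 4-fold rule, 804 were higher (4.65%) and 216 were lower (1.25%). At the edge of that rule, Ckmt1 and Tmem139 lay just inside with a smallest log2 difference from any organ of 2.0003 and 2.0011, and Phgdh and Pkp4 lay just outside with 1.9968. The 804 genes took 11.7% to 12.6% of the reads in kidney libraries and 0.254% to 1.07% in the other libraries. Counts for the gene lists below are to be read beside the shares of all genes tested given here.

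The 804 genes held many transporters and homeobox factors. Solute carriers made up 7.96% of them (64 genes), against 1.95% of all genes tested. Homeobox genes made up 3.61% (29 genes), against 0.504% of all tested. Long non-coding RNAs made up 16.2% (130 genes), against 7.26%, and protein-coding genes 81%, against 87.5%. Of the 216 genes lower in kidney, 89.8% were protein-coding and 2.31% were solute carriers. In 300 of the 804 genes at least 1 other organ had 0 reads. The kidney libraries varied among themselves for these genes with a median coefficient of variation of 9.27% over the 449 of them at 10 CPM or more, against 7.86% over all 8920 genes tested at that level. The most variable of those, singled out after their values were seen, were the retinoic acid-making enzyme Aldh1a3, at 8.47, 16.8 and 30.6 CPM in the 3 kidneys, and Bcat1, which starts the breakdown of branched-chain amino acids, at 21.6, 51.9 and 19.9 CPM.

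**Figure D1:**
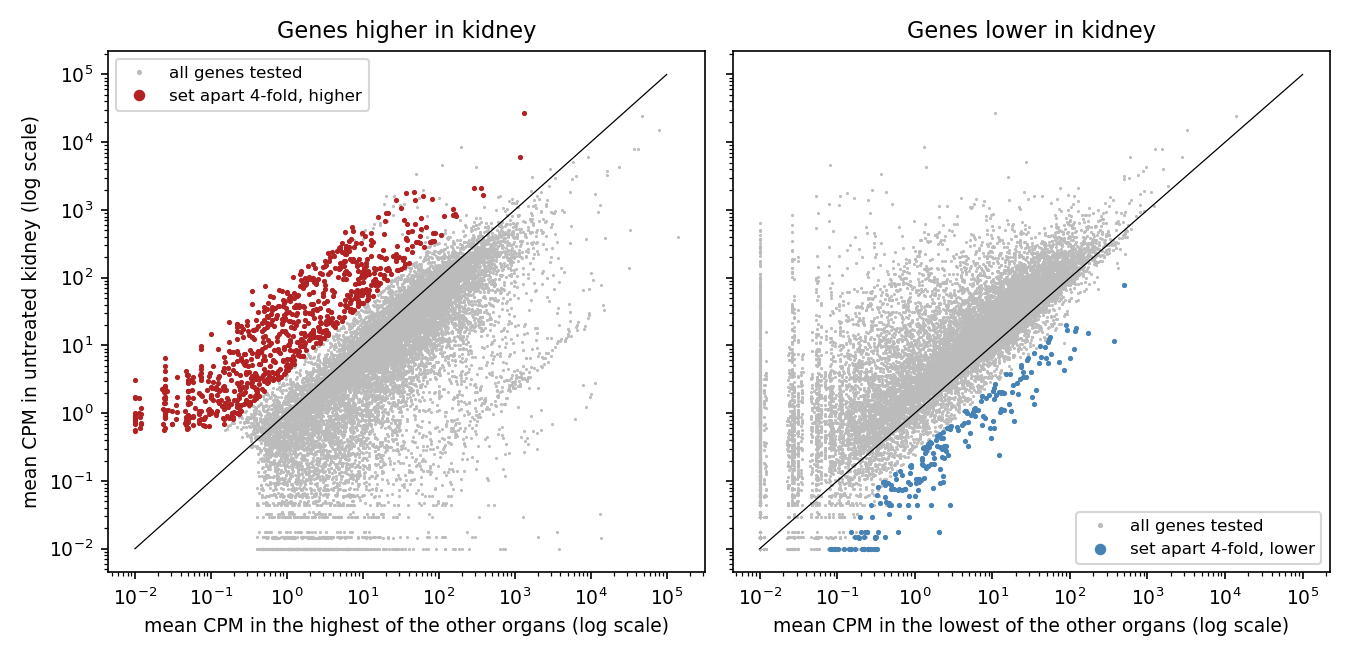
Mean level of each gene in untreated kidney (y axis, CPM, log scale) against the highest (left panel) or lowest (right panel) mean among untreated heart, lung and liver (x axis, CPM, log scale; values under 0.01 drawn at 0.01), with the line of equal levels. Coloured points are the 804 genes set apart 4-fold and higher in kidney (left) and the 216 lower in kidney (right), and grey points are all 17275 genes tested.

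Among genes set apart, the selenoprotein Gpx3, a secreted glutathione peroxidase that the proximal tubule releases into plasma, had by far the highest level per length (14740 RPKM; chromosome 11, 54793279 to 54801203, mm39). It had 23760, 25300 and 31110 CPM in the 3 kidneys, against 342, 2874 and 770 CPM in heart, 780, 881 and 1365 CPM in lung and 9.76, 7.70 and 14.6 CPM in liver. The groups did not overlap, and the log2 difference was 6.78 ± 0.51 (adjusted p = 2.34e-06). Of the 2004 genes set apart and higher, 1971 had no overlap, against 3292 of all 17275 genes tested. The 2004 were chosen by tests on these same libraries, so their lack of overlap is no separate support. Igfbp7, a secreted binding protein of insulin-like growth factors, followed at 1376 RPKM, with 1795, 1624 and 1572 CPM in kidney, against 145, 309 and 99.8 CPM in heart, 363, 401 and 380 CPM in lung and 103, 68.9 and 109 CPM in liver (3.15 ± 0.24). Atp1b1, the beta subunit of the sodium pump, had 681.6 RPKM, with 2376, 1873 and 2051 CPM in kidney, against 275, 337 and 260 CPM in heart, 231, 221 and 285 CPM in lung and 72.7, 77.0 and 75.3 CPM in liver. Its log2 difference was 3.58 ± 0.11 (adjusted p = 9.78e-10), with no overlap between kidney and the other organs. Others among the 10 highest per length were the ferritin heavy chain gene Fth1 (0.77 ± 0.13), the secreted phosphoprotein gene Spp1 (5.03 ± 0.79), the vitamin B12 carrier gene Tcn2 (3.35 ± 0.20), the respiratory chain gene Cox8a (1.38 ± 0.12), the adenine nucleotide carrier gene Slc25a5 (1.45 ± 0.10) and the aldehyde reductase gene Akr1a1 (1.93 ± 0.12).

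Genes set apart and higher, at 10 CPM or more in kidney and without overlap between libraries, were ranked by their smallest difference from any organ. The top-ranked genes detailed here were quiet in heart, lung and liver and of moderate level in kidney. By the difference from the mean, far more abundant genes described below, such as Slc34a1, Umod and Egf, reached similar values. Slc34a1 and Umod were not set apart and so were not ranked. Cyp24a1, the enzyme that inactivates vitamin D (chromosome 2, 170324628 to 170339065), had 69.3, 62.7 and 97.8 CPM in kidney, against 0, 1.56 and 0 CPM in heart, 0, 0 and 1.36 CPM in lung and 0 in liver. Its floor value was 8.14 (adjusted p = 0.000188). Hsd3b4, a steroid dehydrogenase with close paralogs that make its counts uncertain, had 76.9, 57.0 and 56.1 CPM in kidney and at most 1.04 CPM in any other library (floor value 8.21). The calcium-sensing receptor gene Casr, which adjusts calcium recovery in the thick ascending limb, had 60.2, 78.1 and 58.6 CPM in kidney and at most 2.15 CPM elsewhere (floor value 7.79). The brush border cadherin gene Cdhr2 had 108, 98.2 and 97.9 CPM in kidney, against 0, 3.56 and 0 CPM in heart, and at most 0.716 CPM in lung and liver (7.83 ± 0.72). In each of these genes the highest value outside kidney was that of heart replicate 2. Others chosen by the same rule included Lrrc66, Emx2, Pax2, Sim1, Tmem207, B3galt5, Slc7a12, Malrd1, Ceacam2, Cldn19 and Nphs1.

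**Figure D2:**
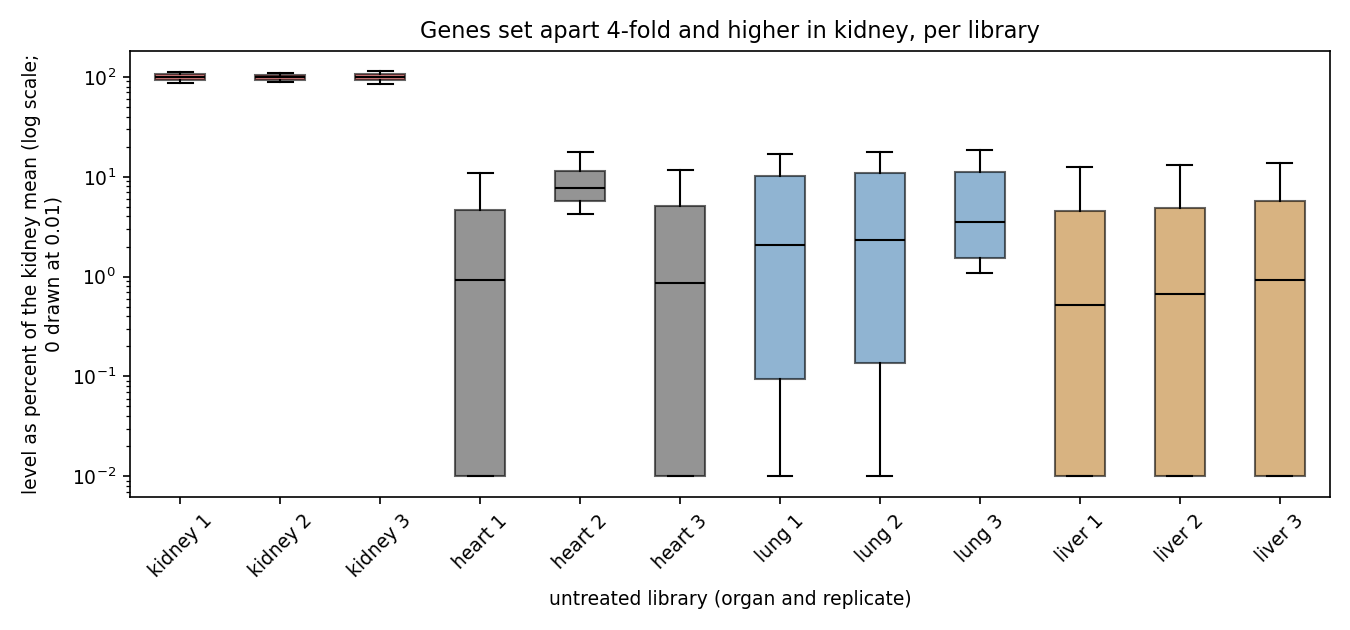
Level of the 449 genes at 10 CPM or more among those set apart 4-fold and higher, in each of the 12 untreated libraries, as percent of the kidney mean (y axis, log scale; 0 drawn at 0.01); boxes span the quartiles, lines are medians and whiskers the 10th to 90th percentiles over genes. The medians were 0.916%, 7.78% and 0.863% in heart replicates 1, 2 and 3, 2.05%, 2.32% and 3.5% in lung and 0.514%, 0.669% and 0.931% in liver.

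The kidney libraries carried markers of every nephron segment that was listed. Summed over its list, the early proximal tubule had 11060, 12610 and 12100 CPM in kidney, against 60.3, 870 and 62.5 CPM in heart, 80.6, 91.1 and 272 CPM in lung and 182, 149 and 254 CPM in liver. The thick ascending limb had 8004, 7972 and 8066 CPM in kidney, against 11.1, 399 and 15.1 CPM in heart, 24.3, 33.7 and 120 CPM in lung and 0.574, 0.0927 and 2.29 CPM in liver. In both lists, which form the tubule marker sum above, heart replicate 2 and lung replicate 3 were the highest of their organ. The intercalated cell list had 868, 857 and 963 CPM in kidney, against 8.86, 56.8 and 6.45 CPM in heart, 84.9, 80.1 and 90.7 CPM in lung and 14.8, 10.7 and 21.6 CPM in liver. The podocyte list, in contrast, summed to 681 ± 32.5 CPM in kidney, against 600 CPM in heart, 1376 CPM in lung and 94.3 CPM in liver. Which cells gave these levels was not tested.

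**Figure D3:**
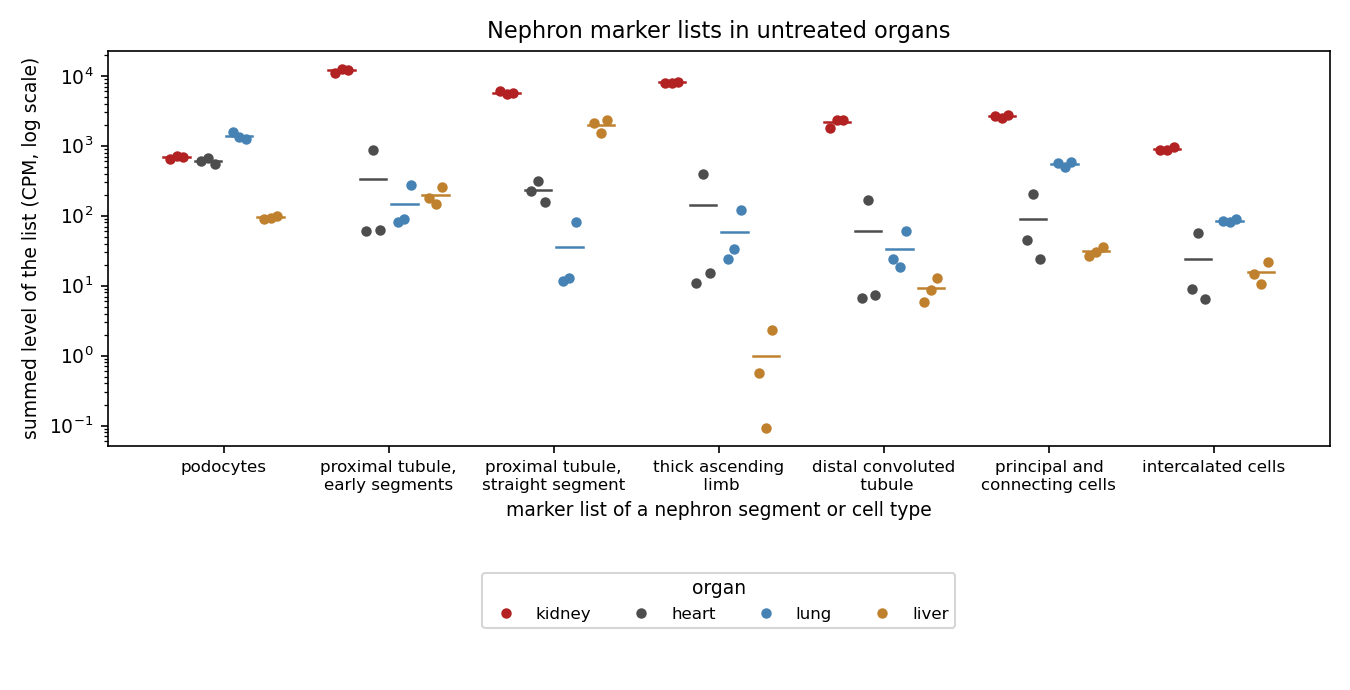
Summed level of 7 marker lists (y axis, CPM, log scale) in untreated kidney, heart, lung and liver; points are the 3 libraries of each organ and lines their mean. Kidney was highest for all lists except that of podocytes, where lung was highest, and 1 heart library and 1 lung library lay above the others of their organ in the tubule lists.

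Of the 12 podocyte genes, 10 were called higher and 1 lower in kidney, 6 were set apart with kidney highest and 3 of these 4-fold. Without heart replicate 2 and lung replicate 3, 5 were set apart, and without the hepatocyte-bearing libraries 3 were. Nphs1, which encodes the slit diaphragm protein nephrin, was set apart 4-fold. It had 17.4, 20.4 and 19.7 CPM in kidney, against 0, 0.668 and 0 CPM in heart, 0, 0 and 0.751 CPM in lung and 0 in liver (floor value 6.84, adjusted p = 9.54e-05). The podocyte transcription factor gene Wt1 was set apart by less, at 10.7, 12.6 and 12.8 CPM in kidney, against 2.82, 7.87 and 8.48 CPM in heart (2.48 ± 0.30 against the mean of the 3 organs), and it was not set apart under either of these alternatives. The chloride channel relative Clic5 was lower in kidney than in lung, at 135, 142 and 136 CPM in kidney, against 981, 765 and 733 CPM in lung. Plce1, a phospholipase needed for glomerular development, was set apart with kidney lowest, at 7.84, 7.73 and 5.04 CPM (-1.45 ± 0.25, adjusted p = 0.000331), though not with library totals as the scaling. In the glomerular neighbourhood, the renin gene Ren1 (chromosome 1, 133278248 to 133288063) had 53.6, 86.0 and 92.2 CPM in kidney, against 0, 9.50 and 0 CPM in heart, 0, 0 and 0.608 CPM in lung and 0 in liver (floor value 7.68, adjusted p = 0.000954).

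All 12 genes of the early proximal tubule were called higher in kidney, and 8 were set apart, each of them 4-fold. Without heart replicate 2 and lung replicate 3, all 12 were set apart 4-fold. These genes were part of the tubule marker sum that singled out those libraries, so the rise is no separate support. The endocytic receptor genes Lrp2 and Cubn, whose proteins megalin and cubilin take up filtered protein, showed the pattern. Lrp2 had 1386, 2223 and 1950 CPM in kidney, against 0.481, 131 and 3.13 CPM in heart, 33.5, 44.6 and 65.4 CPM in lung and 0, 0.186 and 1.10 CPM in liver (7.55 ± 1.24, adjusted p = 0.000715). Cubn had 382, 524 and 485 CPM in kidney and at most 31.9 CPM elsewhere (7.84 ± 1.00). The sodium bicarbonate cotransporter gene Slc4a4, the exit path of bicarbonate, had 1005, 1068 and 1077 CPM in kidney, against 35.8, 89.0 and 30.6 CPM in heart, 16.2, 18.3 and 33.0 CPM in lung and 131, 104 and 224 CPM in liver (4.22 ± 0.32, adjusted p = 1.13e-06). Gatm, which makes the creatine precursor guanidinoacetate, had 979, 1084 and 1132 CPM in kidney and at most 81.7 CPM elsewhere (5.81 ± 0.78).

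Several of the most abundant tubule genes were called against the mean but were not set apart. Slc34a1, the main phosphate transporter of the proximal brush border (977 RPKM; chromosome 13, 55546000 to 55563405), had 4405, 4734 and 4561 CPM in kidney, against 0, 327 and 0 CPM in heart, 0, 0 and 79.9 CPM in lung and 0.164, 0 and 0.0789 CPM in liver. Its log2 difference was 9.48 ± 2.47 (adjusted p = 0.00975), and it was not called against heart alone (adjusted p = 0.178). The same split within heart was seen for the glucose transporter gene Slc5a2, at 468, 504 and 552 CPM in kidney, against 0.0687, 32.4 and 0.0922 CPM in heart. It was seen again for Miox, which starts inositol breakdown, at 1793, 2055 and 2004 CPM in kidney, against 0, 187 and 0 CPM in heart. In all, 39 genes had a fitted difference of at least 4-fold against every organ without being set apart. Of them, 38 were set apart when heart replicate 2 and lung replicate 3 were left out. As these libraries were picked by their tubule marker levels, that rise is no separate support. Without those 2 libraries the genes set apart numbered 7 in the straight proximal tubule, 6 among principal cell genes, 9 among glucose, 14 among amino acid and 8 among phosphate, sulphate and dicarboxylate transporter genes, 21 among kidney transcription factors and 22 among Hox genes. Without the hepatocyte-bearing libraries instead, they numbered 5 in the early proximal tubule, 4 in the thick ascending limb, 4 in the distal convoluted tubule, 9 among intercalated cell genes, 15 among kidney transcription factors and 19 among Hox genes. Then Cubn, Gatm, Ren1, Nphs1, Cyp24a1 and Hsd3b4 were called against the mean and not set apart.

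The straight segment of the proximal tubule had 7 of 8 genes higher and 1 lower, with 5 set apart 4-fold, or 2 without the hepatocyte-bearing libraries. Acy3, which deacetylates mercapturic acids, had 968, 847 and 782 CPM in kidney, against 42.7, 73.0 and 39.7 CPM in heart, 6.71, 6.23 and 17.5 CPM in lung and 193, 162 and 138 CPM in liver (4.29 ± 0.28, adjusted p = 2.12e-07). Slc22a7, an organic anion transporter, had 478, 441 and 490 CPM in kidney, against 44.6, 44.2 and 28.7 CPM in liver (5.90 ± 0.94 against the mean of the 3 organs). Slc7a13, a transporter gene of the straight segment that in mice is higher in males, was low in these females, at 5.87, 2.32 and 2.52 CPM, and still set apart (5.93 ± 0.52). Cyp7b1, an oxysterol hydroxylase that also differs by sex in mouse kidney, was the gene called lower, at 3.77, 2.05 and 2.78 CPM in kidney, against 27.9, 36.5 and 34.6 CPM in liver (-1.06 ± 0.33, adjusted p = 0.0171).

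All 12 thick ascending limb genes were higher in kidney and 10 were set apart 4-fold, or 12 without heart replicate 2 and lung replicate 3. This list was also part of the sum that singled out those libraries. Umod, which encodes uromodulin, the most abundant protein of normal urine (chromosome 7, 119061934 to 119078505), had a level per length of 1248 RPKM. It had 3532, 3633 and 3183 CPM in kidney, against 0, 149 and 0 CPM in heart, 0.0353, 0 and 36.1 CPM in lung and 0.0820, 0 and 1.03 CPM in liver, and was not set apart (9.13 ± 2.23, adjusted p = 0.007). Slc12a1, the cotransporter blocked by loop diuretics, behaved alike, at 1712, 1500 and 1543 CPM in kidney and 0, 60.7 and 0 CPM in heart. The potassium channel gene Kcnj1, which recycles potassium for that transporter, was set apart, at 270, 264 and 289 CPM in kidney, against 0, 17.96 and 0 CPM in heart, 0.106, 0.0673 and 3.97 CPM in lung and 0 in liver (floor value 8.27). The tight junction gene Cldn19, which forms the paracellular path for magnesium and calcium, had 57.9, 47.2 and 49.0 CPM in kidney and at most 1.86 CPM elsewhere. The prostaglandin receptor gene Ptger3 had 124, 105 and 110 CPM in kidney (6.28 ± 0.59, adjusted p = 1.51e-05).

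All 8 genes of the distal convoluted tubule were higher, with 5 set apart 4-fold and 7 without heart replicate 2 and lung replicate 3. The thiazide-sensitive cotransporter gene Slc12a3 had 461, 662 and 701 CPM in kidney, against 0.206, 50.9 and 0.0922 CPM in heart, and was not set apart (8.89 ± 1.70, adjusted p = 0.00179). The calcium-binding protein gene Pvalb was set apart, at 17.8, 17.8 and 20.6 CPM in kidney, against 2.20, 3.34 and 2.21 CPM in heart, 0.0353, 0.0673 and 0.394 CPM in lung and 0 in liver (adjusted p = 1.9e-07). Klhl3, which adjusts the salt transporter through the WNK kinases, had 46.4, 49.5 and 41.2 CPM in kidney, against 3.64, 7.42 and 4.70 CPM in heart, 2.83, 2.26 and 4.51 CPM in lung and 5.66, 8.16 and 12.2 CPM in liver (3.12 ± 0.23). The magnesium channel gene Trpm6 was not kidney's highest: it had 8.38, 8.91 and 7.93 CPM in kidney, against 20.3, 15.1 and 15.9 CPM in lung.

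In the collecting duct, all 11 tested genes of principal and connecting cells were higher than the mean; 5 were set apart 4-fold and 4 were shared with lung. The vasopressin-regulated water channel gene Aqp2 had 633, 501 and 527 CPM in kidney, against 0, 21.8 and 0.0922 CPM in heart, 0.318, 0.438 and 9.30 CPM in lung and 0, 0 and 0.710 CPM in liver (8.23 ± 1.43, adjusted p = 0.00101). Aqp4, the water channel of the basolateral face, had 156, 130 and 129 CPM in kidney, against 17.5, 12.2 and 10.3 CPM in heart, 13.6, 12.7 and 15.2 CPM in lung and 1.64, 1.48 and 1.74 CPM in liver (4.36 ± 0.13, adjusted p = 8.31e-10). Of the 3 subunits of the epithelial sodium channel, by which lung also clears fluid, Scnn1a and Scnn1g were called lower in kidney than in lung and Scnn1b was not called. Scnn1a had 141, 149 and 158 CPM in kidney, against 310, 265 and 287 CPM in lung. Scnn1g had 47.3, 44.6 and 49.0 CPM in kidney, against 124, 109 and 118 CPM in lung. Hsd11b2, which keeps cortisol-like steroids off the mineralocorticoid receptor, was set apart, at 251, 239 and 277 CPM in kidney and at most 17.6 CPM elsewhere (8.18 ± 1.10).

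All 13 intercalated cell genes were higher in kidney and 11 were set apart 4-fold, the same number without heart replicate 2 and lung replicate 3. Atp6v0a4, a subunit of the proton pump in these cells, had 297, 308 and 382 CPM in kidney, against 1.03, 21.7 and 1.75 CPM in heart, 4.52, 5.02 and 10.1 CPM in lung and 0.164, 0.371 and 0.552 CPM in liver (6.92 ± 0.74, adjusted p = 4.22e-05). The forkhead factor gene Foxi1, which sets intercalated identity (chromosome 11, 34154338 to 34158089), had 25.6, 29.3 and 28.2 CPM in kidney, against 0, 2.23 and 0 CPM in heart, 0, 0 and 0.322 CPM in lung and 0 in liver (floor value 7.20). The base exchanger gene Slc26a4, of base-secreting cells, had 84.0, 92.3 and 108 CPM in kidney and at most 7.41 CPM elsewhere (5.62 ± 0.62). Slc4a1, the exchanger of acid-secreting cells and of erythrocytes, had 92.6, 70.0 and 77.7 CPM in kidney, against 4.67, 3.86 and 3.60 CPM in heart, 8.76, 11.9 and 3.40 CPM in lung and 0.738, 1.67 and 0.0789 CPM in liver (4.75 ± 0.36). The erythroid list summed to 443 CPM in kidney, below the 4226, 3917 and 1079 CPM of heart, lung and liver.

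The proton pump itself showed the same lean toward kidney across its common subunits. Of 20 V-ATPase genes, 19 were called higher and 0 lower by edgeR, 13 were set apart and 4 were set apart 4-fold, with a median log2 difference of 1.22, against 0.10 over all genes tested. Atp6v1a, the ATP-hydrolysing subunit, had 825, 829 and 916 CPM in kidney, against 44.4, 93.9 and 54.2 CPM in heart, 160, 148 and 158 CPM in lung and 135, 128 and 116 CPM in liver (2.99 ± 0.16, adjusted p = 3.09e-08). Atp6v1b2 was higher by 2.09 ± 0.09. Atp6v0a1, the membrane subunit of many cell types, was the exception, at 56.7, 67.7 and 51.0 CPM in kidney (-0.30 ± 0.13, adjusted p = 0.074).

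Transport genes were next grouped by what they carry. Of 13 glucose transporter genes, 11 were higher and 1 lower, with 8 set apart and 7 of them 4-fold. The sodium-driven transporter gene Slc5a1 had 154, 144 and 144 CPM in kidney (5.14 ± 0.38, adjusted p = 1.75e-06). The ubiquitous transporter gene Slc2a1 had 95.7, 78.5 and 94.9 CPM in kidney, against 23.6, 25.4 and 27.8 CPM in heart, 25.8, 24.0 and 27.9 CPM in lung and 13.7, 9.18 and 18.1 CPM in liver (2.10 ± 0.14). The exit transporter gene Slc2a2 had 219, 224 and 218 CPM in kidney, against 596, 583 and 623 CPM in liver, a difference that was not called between these 2 organs (adjusted p = 0.127). The insulin-responsive Slc2a4 was called lower in kidney than in heart, at 44.7, 48.5 and 59.8 CPM in kidney, against 712, 685 and 735 CPM in heart. The sodium-driven transporter genes named here were thus highest in kidney, and Slc2a2 and Slc2a4 were not.

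Of 20 amino acid transporter genes, 17 were higher and 2 lower, with 12 set apart and 10 of them 4-fold (6 without the hepatocyte-bearing libraries). Slc6a19, which takes up neutral amino acids at the brush border, had 506, 388 and 456 CPM in kidney (7.93 ± 1.33, adjusted p = 0.000814), and the glutamate transporter gene Slc1a1 had 200, 193 and 230 CPM (7.02 ± 0.71). Among basolateral exchangers, Slc7a7 had 256, 234 and 271 CPM (4.34 ± 0.28) and Slc7a8 had 347, 396 and 329 CPM (5.31 ± 0.51), and their shared heavy chain gene Slc3a2 was set apart by less, at 1.84 ± 0.11. Slc36a2 (-2.59 ± 0.54) and Slc7a5 (-0.73 ± 0.17) were lower. The glutamine transporter gene Slc38a3 was mostly a liver gene here, at 78.4, 77.5 and 89.9 CPM in kidney, against 2263, 2140 and 2384 CPM in liver.

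Of 26 organic ion transporter genes, 21 were higher and 0 lower by edgeR, and 12 were set apart, 11 of them 4-fold, or 18 and 16 without heart replicate 2 and lung replicate 3, and 7 and 6 without the hepatocyte-bearing libraries. The urate exchanger gene Slc22a12, not set apart, had 687, 863 and 990 CPM in kidney, against 0, 76.0 and 0 CPM in heart (9.18 ± 1.90, adjusted p = 0.00292). The carnitine transporter gene Slc22a5 had 342, 296 and 348 CPM in kidney, against 50.3, 61.9 and 46.9 CPM in heart, 18.5, 22.5 and 27.5 CPM in lung and 53.6, 50.2 and 63.5 CPM in liver (3.01 ± 0.12, adjusted p = 4.33e-09). The export pump gene Abcc4 had 108, 136 and 150 CPM in kidney (3.24 ± 0.16). Of the 14 phosphate, sulphate and dicarboxylate transporter genes, 11 were higher and 1 lower, with 5 set apart 4-fold. Slc9a3, the sodium-proton exchanger of the brush border, had 156, 134 and 130 CPM in kidney (8.47 ± 0.67, adjusted p = 4.82e-06), whereas the phosphate transporter gene Slc34a2 was a lung gene, at 5.65, 6.81 and 7.09 CPM in kidney, against 1674, 1419 and 1709 CPM in lung.

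Water channels and tight junction genes were split between organs. Of 10 tested aquaporins, 7 were higher and 2 lower, with 5 set apart with kidney highest. Without the hepatocyte-bearing libraries 2 were, and 1 was set apart with kidney lowest. Aqp1, the water channel of the proximal tubule, thin limb and capillaries, had 1451, 1124 and 1226 CPM in kidney, against 835, 943 and 985 CPM in lung (1.35 ± 0.12 against the mean of the 3 organs), and was not set apart without the hepatocyte-bearing libraries. Of 17 tested claudins, 11 were higher and 2 lower, with 5 set apart (8 with library totals), 4 shared with liver and 3 with lung. The general tubular adhesion gene Cdh16 had 1467, 1450 and 1310 CPM in kidney, against 0.755, 79.9 and 0.922 CPM in heart, 10.6, 10.9 and 25.5 CPM in lung and 0.328, 0.186 and 0.237 CPM in liver (8.20 ± 1.16, adjusted p = 0.000276). Among 12 genes of epithelia in general, 7 were shared with lung and 1, Cdh16, was set apart, or 3 without heart replicate 2 and lung replicate 3.

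Endocrine genes were in part highest in kidney and in part higher in another organ. Of 13 genes of vitamin D, parathyroid hormone and Fgf23 signalling, 9 were higher and 3 lower, with 7 set apart and 6 of them 4-fold. Cyp27b1, which activates vitamin D, had 7.26, 2.32 and 4.25 CPM in kidney, against 0, 0.445 and 0 CPM in heart, 0, 0 and 0.107 CPM in lung and 0 in liver (adjusted p = 2.9e-05). The vitamin D receptor gene Vdr had 181, 205 and 183 CPM in kidney, against 2.27, 13.2 and 2.86 CPM in heart, 6.92, 5.29 and 7.87 CPM in lung and 0.0820, 0 and 0 CPM in liver (adjusted p = 8.88e-07). The parathyroid hormone receptor gene Pth1r had 670, 735 and 765 CPM in kidney (5.13 ± 0.56), and Kl, which encodes the Fgf23 coreceptor klotho, had 798, 1010 and 903 CPM, against 0.275, 64.4 and 0.184 CPM in heart (8.80 ± 1.59). The 25-hydroxylase genes Cyp2r1 (-1.56 ± 0.44) and Cyp27a1 (-1.48 ± 0.39), known from liver, and Rxra (-0.56 ± 0.15) were the 3 lower.

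Of 12 tested genes of the renin-angiotensin system, 9 were higher and 0 lower by edgeR, and 4 were set apart. Ace, which makes angiotensin II, was called lower in kidney than in lung, at 350, 395 and 286 CPM in kidney, against 778, 856 and 744 CPM in lung. The precursor gene Agt was mostly in liver, at 156, 128 and 115 CPM in kidney, against 1724, 1815 and 1752 CPM in liver. Of 13 aldosterone pathway genes, 9 were higher and 3 lower. The kinase gene Wnk4, which switches distal salt transport, had 111, 124 and 94.2 CPM in kidney (4.59 ± 0.23), and the steroid-induced Tsc22d3 was set apart with kidney lowest, at 27.4, 34.7 and 20.4 CPM (-1.36 ± 0.30, adjusted p = 0.00298), though not with library totals or without the hepatocyte-bearing libraries. Of 11 magnesium handling genes, 9 were higher and 1 lower, with Cnnm2, linked to magnesium loss in people, at 56.3, 51.5 and 57.4 CPM in kidney (2.07 ± 0.09).

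Metabolic genes were in part shared with liver. Of 13 tested gluconeogenesis genes, 12 were higher than the mean, but 6 were shared with liver and 2 were set apart (5 with library totals, 1 without the hepatocyte-bearing libraries). Pck1, which commits carbon to glucose, had 1467, 1487 and 1856 CPM in kidney, against 1418, 3123 and 1263 CPM in liver, so the groups overlapped. The glutathione-cleaving enzyme gene Ggt1 was set apart 4-fold, at 870, 895 and 946 CPM in kidney (8.27 ± 1.51).

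Of 22 genes of amino acid breakdown, 13 were higher and 3 lower, 0 were set apart by edgeR and 9 were shared with liver. The list summed to 4038 CPM in kidney, against 1769, 114 and 28850 CPM in heart, lung and liver. In the urea cycle list of 9 genes, 4 were higher and 4 lower, and 2 were set apart with kidney highest (1 without the hepatocyte-bearing libraries). Ass1, which kidney uses to make arginine, had 1915, 1925 and 1772 CPM in kidney, against 4344, 6183 and 5671 CPM in liver (2.37 ± 0.29 against the mean of the 3 organs). Arg2, the mitochondrial arginase, was set apart, at 20.3, 19.0 and 23.9 CPM in kidney, against 0.137, 0.297 and 0.0922 CPM in heart, 3.53, 2.39 and 3.76 CPM in lung and 0, 0.464 and 0.316 CPM in liver (5.29 ± 0.27). The liver arginase gene Arg1 had 13.1, 0.786 and 0.420 CPM in the kidneys, against 1571, 1779 and 1612 CPM in liver, with kidney replicate 1, the one with more hepatocyte marker transcripts, the highest kidney. The osmolyte list summed to 4233 CPM in kidney, against 1142, 432 and 2573 CPM in heart, lung and liver. Of its 9 genes, 8 were higher and 3 set apart, led by the inositol transporter gene Slc5a3 at 183, 199 and 153 CPM in kidney (4.83 ± 0.44). Over all genes tested, 33.9% were higher and 20.9% lower, with a median of 0.10. Of 28 respiratory chain genes, 12 were higher and 2 lower, with a median of 0.27. Of 18 fatty acid oxidation genes, 6 were higher and 4 lower, near the shares of all genes, with a median of 0.20. These counts depend on the scaling: with library totals 23 and 10 were higher, and with RLE 8 and 6.

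Transcription factors of kidney development were mostly higher in kidney. Of 33 listed, 31 were higher and 0 lower by edgeR, and 21 were set apart, 16 of them 4-fold, with a median log2 difference of 4.12. Pax2, which starts nephron formation (chromosome 19, 44744484 to 44826310), had 50.6, 40.8 and 32.8 CPM in kidney, against 0, 1.04 and 0 CPM in heart, 0, 0 and 0.429 CPM in lung and 0 in liver (floor value 8.01, adjusted p = 2.62e-05). Emx2, a homeobox gene of the ureteric bud (chromosome 19, 59446804 to 59453789), had 24.4, 21.2 and 21.8 CPM in kidney, against 0, 0.519 and 0 CPM in heart, 0, 0 and 0.0716 CPM in lung and 0 in liver (floor value 8.14). Lhx1, another homeobox gene of the early nephron, had 16.2, 16.6 and 15.1 CPM in kidney and at most 0.742 CPM elsewhere (7.72 ± 0.47). The homeobox gene Uncx (chromosome 5, 139529249 to 139533934) had 2.24, 1.44 and 1.47 CPM in kidney and 0 reads in all 9 other libraries. Against the floor it was at least 20.4-fold higher than heart, 22.3-fold higher than lung and 49.2-fold higher than liver.

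The hepatocyte nuclear factor gene Hnf4a was not called between kidney, at 623, 655 and 613 CPM, and liver, at 690, 781 and 895 CPM (adjusted p = 0.848), while its relative Hnf4g was set apart, at 8.16, 7.95 and 7.82 CPM in kidney and at most 0.556 CPM elsewhere (5.71 ± 0.43).

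Hox genes, which keep the position along the body axis at which a tissue formed, were higher in kidney in 28 of 29 tested, with 21 set apart and 18 of these 4-fold. Summed, they had 509, 504 and 539 CPM in kidney, against 3.91, 36.3 and 3.69 CPM in heart, 74.5, 62.7 and 79.5 CPM in lung and 2.95, 4.92 and 5.68 CPM in liver. The genes set apart 4-fold came from all 4 clusters and were mainly those numbered 6 to 11. Hoxd8 (chromosome 2, 74534959 to 74538277) was the most abundant per length at 50.5 RPKM, with 126, 136 and 153 CPM in kidney, against 1.17, 12.5 and 1.01 CPM in heart, 0.6003, 0.404 and 3.47 CPM in lung and 0, 0 and 0.0789 CPM in liver (7.77 ± 0.82, adjusted p = 3.99e-05). Hoxa10 (chromosome 6, 52208177 to 52217834) had 59.5, 56.4 and 61.2 CPM in kidney, against 0.137, 3.56 and 0 CPM in heart, 0, 0 and 0.429 CPM in lung and 0 in liver (floor value 7.91). Hoxb9 (chromosome 11, 96162283 to 96167421) had 40.2, 33.9 and 36.9 CPM in kidney and at most 1.34 CPM elsewhere, and Hoxc9 (chromosome 15, 102884874 to 102893531) had 6.72, 6.90 and 5.93 CPM and at most 0.0742 CPM elsewhere.

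Several lower-numbered Hox genes of the A and B clusters were lower in kidney than in lung, while others were not. Hoxa5 (chromosome 6, 52178734 to 52181567) had 9.32, 9.26 and 8.61 CPM in kidney, against 32.7, 24.1 and 27.4 CPM in lung, and Hoxb5 had 5.15, 4.24 and 3.26 CPM in kidney, against 11.2, 8.75 and 11.2 CPM in lung. Both were higher in kidney than the mean of the 3 organs. Hoxa2 was not called, at 0.359, 0.349 and 0.315 CPM in kidney, against 2.93, 2.83 and 3.40 CPM in lung (-0.75 ± 0.40, adjusted p = 0.133 against the mean of the 3 organs). In contrast, Hoxb2, Hoxc4, Hoxc5 and Hoxd4 were set apart with kidney highest. Hoxb2 had 1.97, 1.75 and 1.79 CPM in kidney, against 0.494, 0.707 and 0.823 CPM in lung, and Hoxc4 had 1.35, 1.22 and 1.42 CPM in kidney, against 0.353, 0.101 and 0.286 CPM in lung. In all, 12 Hox genes were shared by kidney and lung, and 0 were shared with heart or with liver by edgeR. Neighbouring Hox genes overlap or share transcripts, and these libraries do not keep the strand, so reads of antisense transcripts in the clusters cannot be told apart from those of the genes.

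**Figure D4:**
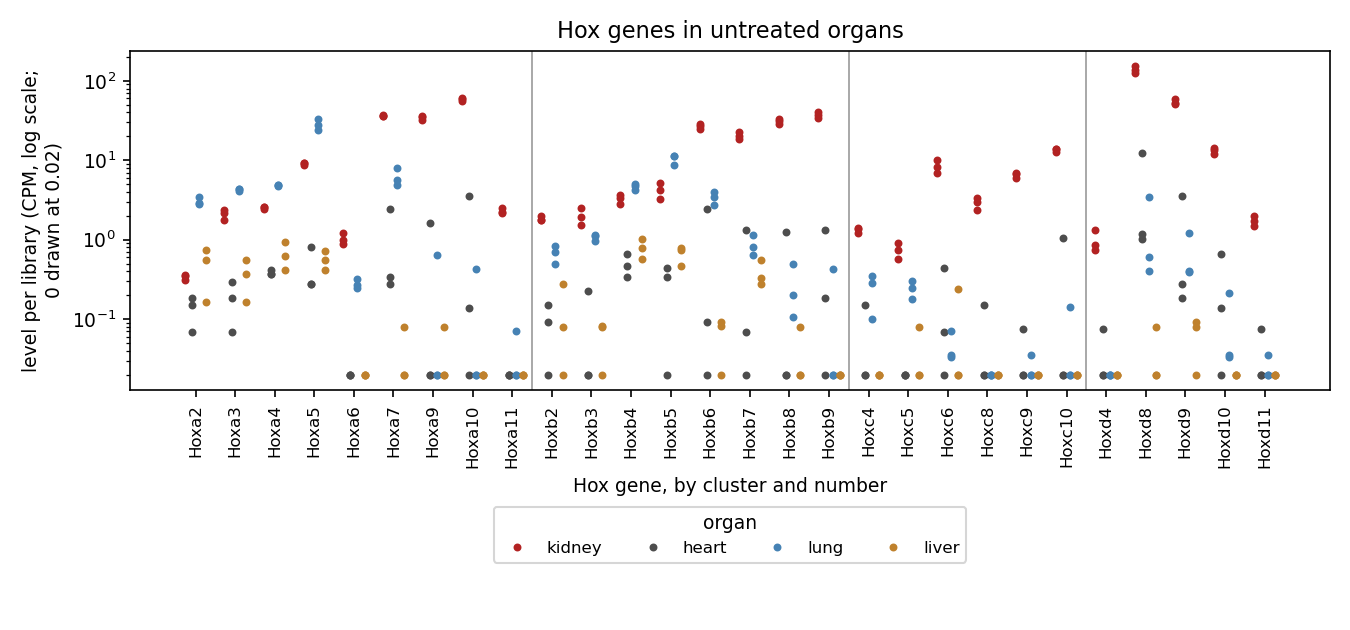
Level of 28 of the 29 tested Hox genes in the 12 untreated libraries (y axis, CPM, log scale; 0 drawn at 0.02), ordered by cluster and number (x axis), with points for single libraries of kidney, heart, lung and liver. By its mean, kidney is highest at every tested gene numbered 6 or more and at Hoxb2, Hoxb3, Hoxc4, Hoxc5 and Hoxd4, while lung is highest at Hoxa2 to Hoxa5, Hoxb4 and Hoxb5; in most genes the raised heart point is replicate 2.

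Many kidney genes were shared with 1 other organ. Kidney and liver were both higher than heart and lung in 1457 genes (8.43%), of which 267 were also set apart with kidney highest. Examples were Slc27a2, a peroxisomal and membrane fatty acid ligase (means of 3056 CPM in kidney, 141 CPM in heart, 15.8 CPM in lung and 1686 CPM in liver), Chdh, which makes betaine from choline (178, 10.5, 2.89 and 145 CPM in the same order), and Mgam, a maltase (136, 10.1, 1.34 and 148 CPM). Kidney and heart shared 813 genes (4.71%), among them Esrrb, an estrogen-related receptor (48.1 CPM in kidney, 32.3 CPM in heart, 0.284 CPM in lung and 1.07 CPM in liver), and the potassium channel subunit gene Kcne1 (18.03, 16.3, 0.166 and 0 CPM). Kidney and lung shared 1494 genes (8.65%), among them the epithelial splicing factor gene Esrp1 (27.3 CPM in kidney, 0.524 CPM in heart, 22.2 CPM in lung and 0.367 CPM in liver) and the basement membrane protein gene Npnt (360, 8.002, 442 and 1.19 CPM).

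Genes lower in kidney than in every other organ were fewer and included plasma protein, lymphatic and immune genes. Spon2, a secreted matrix protein of innate immunity (chromosome 5, 33355528 to 33375799), had 0.269, 0.131 and 0.315 CPM in kidney, against 7.004, 14.8 and 15.2 CPM in heart, 6.92, 25.1 and 20.7 CPM in lung and 14.2, 19.0 and 10.0 CPM in liver (-5.92 ± 0.62, adjusted p = 1.06e-05). The glycoprotein gene Lrg1 (chromosome 17, 56426678 to 56429001) had 1.66, 1.22 and 1.16 CPM in kidney, against 49.7, 23.4 and 46.6 CPM in heart, 26.0, 37.0 and 40.9 CPM in lung and 325, 182 and 184 CPM in liver (-5.65 ± 0.37). Kidney was far below the lowest of the other organs in both. The aldehyde oxidase gene Aox1 had 1.35, 0.612 and 0.315 CPM in kidney, against 23.7, 16.5 and 24.6 CPM in heart, 18.4, 19.2 and 20.2 CPM in lung and 45.3, 58.0 and 76.1 CPM in liver (-5.23 ± 0.35). The lymphatic endothelial receptor gene Lyve1 had 1.39, 0.393 and 0.0525 CPM in kidney, against 19.7, 13.7 and 13.8 CPM in heart, 173, 148 and 141 CPM in lung and 13.5, 5.38 and 12.7 CPM in liver (-5.53 ± 0.59).

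Other genes of that group moved with the hepatocyte markers, a list that holds Hp itself. Heart replicate 1 also carried lung epithelial markers. The haptoglobin gene Hp had 29.2, 3.80 and 2.10 CPM in kidney, against 553, 48.0 and 495 CPM in heart, 817, 908 and 1094 CPM in lung and 5605, 4541 and 3724 CPM in liver (-6.64 ± 1.26). Kidney replicate 1 and heart replicates 1 and 3, which had the most hepatocyte marker transcripts outside liver, were highest in their organs. The same libraries were highest for Pon1 (-6.00 ± 1.34), Hc (-6.86 ± 1.57), F7 (-5.40 ± 1.06), Sec14l4 (-5.94 ± 1.11), Cyp2f2 (-6.84 ± 1.28), C4b (-5.10 ± 0.81) and Serpina3n (-5.54 ± 1.03). Without those 3 libraries all 8 genes were still set apart 4-fold, with Hp at -7.73 ± 0.40, Pon1 at -7.54 ± 0.40 and F7 at -6.78 ± 0.39.

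Most immune and vessel markers were lower in kidney than the mean of the other organs. By organ means, the summed B cell, T cell, macrophage and neutrophil lists were lowest in kidney. The endothelial, smooth muscle and fibroblast lists were below heart and lung but above liver, with overlap between kidney and liver libraries for fibroblasts. The endothelial list summed to 435.3 CPM in kidney, against 1003, 3327 and 334.5 CPM in heart, lung and liver. All 6 B cell markers were lower, 5 of them set apart (1 without the hepatocyte-bearing libraries, 0 with library totals), and the list summed to 8.24 CPM in kidney, against 41.9, 220 and 19.1 CPM in heart, lung and liver. All 7 macrophage markers were lower and 4 were set apart. The macrophage gene Adgre1 had 4.93, 4.94 and 4.62 CPM in kidney (-2.67 ± 0.24, adjusted p = 1.45e-06), and the lysozyme gene Lyz2 had 16.2, 13.4 and 14.9 CPM in kidney, against 5123, 4924 and 4975 CPM in lung. Of 8 endothelial markers 7 were lower, with Vwf set apart at 7.04, 9.83 and 6.67 CPM (-3.80 ± 0.39; not with library totals), and Emcn alone was higher, at 52.5, 47.3 and 52.7 CPM (1.54 ± 0.11). Of 5 T cell markers 4 were lower, of 5 neutrophil markers 4, of 6 fibroblast markers 3, of 5 smooth muscle markers 2 and of 5 erythroid markers 5. The 6 adipocyte markers were not called in either direction by edgeR. Of markers of the organs compared, 8 of 10 cardiomyocyte, 5 of 9 lung epithelial and 3 of 11 hepatocyte genes were lower in kidney and 0 were higher. Over all genes tested, 20.9% were lower and 33.9% higher. Adrenal medulla genes Dbh and Pnmt had 0 reads in kidney, while the elastase gene Cela1 of the pancreas list had 79.1, 89.1 and 99.4 CPM in kidney and was set apart (3.83 ± 0.48); the other 5 pancreas markers were too low to be tested.

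The Egf family was examined because the study is about Egf. Egf itself (chromosome 3, 129471214 to 129548965), made in the thick ascending limb and distal convoluted tubule, had 1597, 1683 and 2075 CPM in kidney, against 5.56, 96.3 and 8.30 CPM in heart, 0.141, 0.202 and 27.4 CPM in lung and 0.164, 0 and 0.237 CPM in liver. It was set apart 4-fold (8.93 ± 1.47, adjusted p = 0.000743), and heart replicate 2 and lung replicate 3 had the highest values of their organs. Egf is itself part of the tubule marker sum that singled out these libraries. Without those 2 libraries its difference was 11.62 ± 0.28, and without the hepatocyte-bearing libraries it was 8.44 ± 2.20 and Egf was not set apart (adjusted p = 0.025 against the mean). Of the other ligands, Btc was set apart by less, at 11.4, 8.21 and 8.87 CPM in kidney, against 2.34, 2.15 and 4.52 CPM in heart, 2.75, 3.97 and 4.12 CPM in lung and 3.77, 5.01 and 2.45 CPM in liver (1.48 ± 0.23). Nrg1 (ENSMUSG00000062991; the other row with this symbol held 0 reads) was shared with lung, at 5.51, 7.43 and 5.67 CPM in kidney (1.60 ± 0.28), and Nrg4 was lower, at 1.30, 0.874 and 0.578 CPM (-1.001 ± 0.31, adjusted p = 0.0163). Hbegf, at 10.8, 8.17 and 6.88 CPM, and Tgfa, at 13.7, 12.8 and 10.5 CPM, were not called, and Areg had 0 reads in kidney.

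Of the receptors, Erbb4 and Erbb2 were set apart and Egfr and Erbb3 were not. Egfr, the receptor of Egf, was not called, at 43.2, 44.2 and 38.9 CPM in kidney, against 27.5, 11.2 and 33.6 CPM in heart, 14.0, 17.1 and 14.9 CPM in lung and 269, 307 and 432 CPM in liver (-0.24 ± 0.26, adjusted p = 0.464). The sign of this difference turned positive, at 0.02, with library totals as the scaling. Erbb4, a receptor of neuregulins and Btc (chromosome 1, 68071345 to 69147218), was set apart, at 34.7, 32.0 and 27.5 CPM in kidney, against 9.13, 9.94 and 12.6 CPM in heart, 0.212, 0.370 and 0.751 CPM in lung and 3.03, 1.95 and 2.84 CPM in liver (3.76 ± 0.20, adjusted p = 2.46e-08). Erbb2, the partner receptor with no ligand of its own (chromosome 11, 98303296 to 98328542), was set apart too, at 85.2, 72.3 and 69.4 CPM in kidney, against 11.1, 10.0 and 6.36 CPM in heart, 31.8, 30.7 and 35.5 CPM in lung and 1.64, 1.30 and 3.31 CPM in liver (3.14 ± 0.18). Erbb3, at 83.1, 51.3 and 54.0 CPM in kidney, was not called (0.53 ± 0.22, adjusted p = 0.0602). In all, 5 of 12 tested family genes were higher in kidney, 1 was lower and 4 were set apart, against 33.9%, 20.9% and 11.6% of all genes tested.

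**Figure D5:**
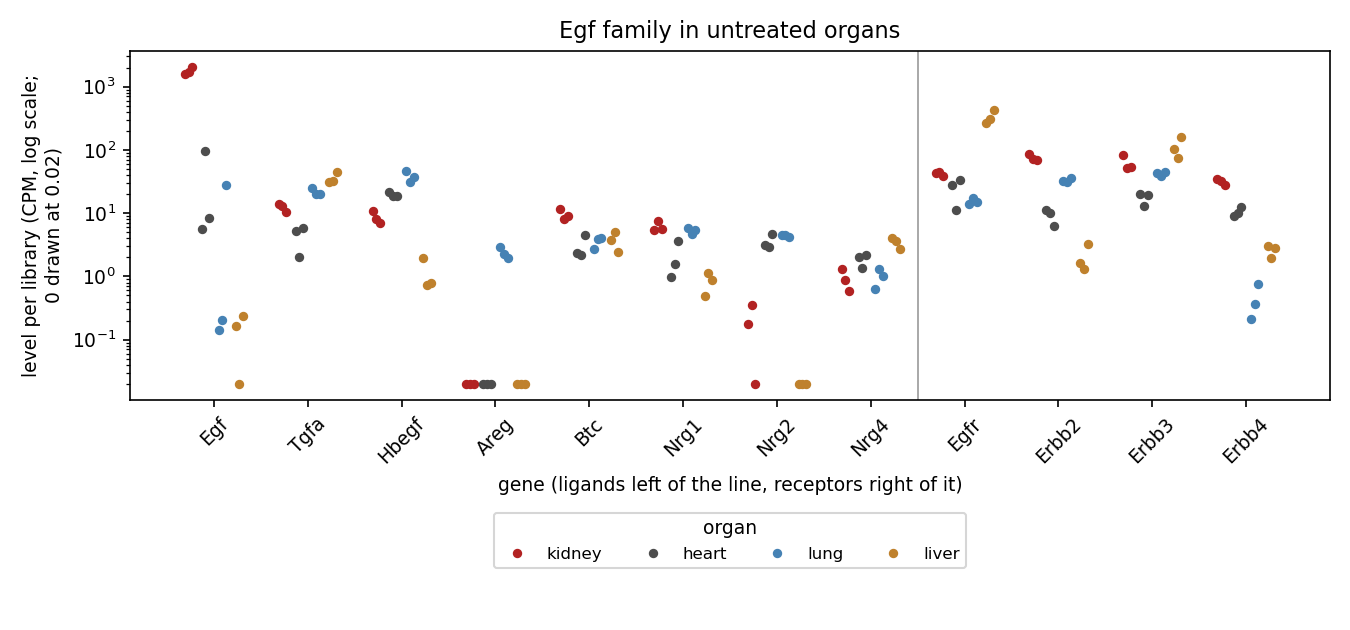
Level of the tested Egf family genes in the 12 untreated libraries (y axis, CPM, log scale; 0 drawn at 0.02), ligands left of the line and receptors right of it, with points for single libraries of kidney, heart, lung and liver. Egf lies above 1590 CPM in the 3 kidneys and below 97 CPM in every other library, Erbb2 and Erbb4 are highest in kidney, and Egfr is highest in liver.

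The organs of vehicle mice, which are separate libraries, gave the same contrast again at 2 h and 6 h. At 2 h, 671 of 17035 genes tested were set apart 4-fold and higher in kidney (3.94%) and 169 lower (0.992%), and at 6 h 815 of 17178 were higher (4.74%) and 202 lower (1.18%). Of the 804 genes of untreated kidney, 619 were set apart 4-fold at 2 h, which is 77% of the untreated and 92.3% of the vehicle list, and 708 at 6 h, which is 88.1% and 86.9%. Of the 216 genes lower in untreated kidney, 105 were set apart 4-fold at 2 h and 109 at 6 h. Erbb4 differed by 3.07 ± 0.20 at 2 h and 3.32 ± 0.21 at 6 h. Aox1 differed by -5.77 ± 0.30 and -5.38 ± 0.25. Erbb2 and Btc were set apart at 6 h and not at 2 h, and Hp, Pon1, Hc, F7, Sec14l4 and Cyp2f2 were not set apart at 2 h. In vehicle hearts the tubule markers reached 18.4% of the kidney mean at 2 h and 6.32% at 6 h, so some vehicle hearts also carried tubule transcripts, and the part of this in the lower count at 2 h was not tested.

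Finally, the genes that set untreated kidney apart were followed in kidneys of mice given Egf, against kidneys given vehicle. At 2 h edgeR called 34 of 15654 genes higher (0.217%) and 6 lower (0.0383%), and of the 804 kidney genes 3 were higher (0.373% of them) and 1 was lower (0.124%). Misp, an actin-bundling protein of the cell cortex, had 54.3, 51.0, 36.4 and 43.3 CPM after Egf, against 28.4, 18 and 23.8 CPM after vehicle (0.98 ± 0.16, adjusted p = 0.0169). Hnf4g had 7.76, 9.71, 11.2 and 10.0 CPM after Egf, against 4.75, 4.77 and 6.22 CPM after vehicle (0.88 ± 0.14, adjusted p = 0.0157). The long non-coding RNA ENSMUSG00000120343 (chromosome 11, 20691718 to 20692910) had 6.40, 6.43, 5.97 and 8.93 CPM after Egf, against 2.85, 3.31 and 3.37 CPM after vehicle (1.13 ± 0.18, adjusted p = 0.0169). In these 3 genes no Egf library overlapped a vehicle library, but the genes were picked by the test on these same libraries. The untreated kidneys had 9.04, 8.89 and 8.58 CPM of Hnf4g in that fit, above every vehicle kidney and within the range of the Egf kidneys. They had 32.6, 30.0 and 24.2 CPM of Misp and 2.43, 2.54 and 2.99 CPM of ENSMUSG00000120343, below every Egf kidney.

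Foxi1 was the gene called lower, at 26.0, 30.9, 20.3 and 17.5 CPM after Egf, against 40.5, 38.2 and 41.3 CPM after vehicle (adjusted p = 0.0407). The untreated kidneys, at 28.4, 32.8 and 30.9 CPM in that fit, lay below the vehicle kidneys and overlapped the Egf kidneys. At 6 h edgeR called 0 genes in either direction (0%), and 590 genes were higher and 395 lower at an unadjusted p under 0.05; no other tool was run there. The Egf transcript itself was not called after injected Egf, with a difference of 0.24 ± 0.19 at 2 h and 0.14 ± 0.19 at 6 h, and neither was Egfr, at 0.01 at 2 h. The calls at 2 h depend on single libraries: leaving out 1 of the 7 gave 6 to 59 calls in place of 40. With only these 7 libraries in the fit, 1 gene was called, so most of Misp, Hnf4g, ENSMUSG00000120343 and Foxi1 were not. The count also fell with the replicate number as a block.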

How the data were processed

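The deposited table holds counts of reads per gene, with gene symbol, biotype, position and length, for 68 libraries; per the labels, library preparation was not directional. The authors aligned reads with HISAT2 2.0.5 to build mm39 and counted with featureCounts 1.5.0-p3, per the submitters' processing notes. The counts were taken as deposited, and no column was left out for lack of a label. The 12 untreated libraries were fitted in edgeR 4.0.16 (R 4.3.3) with its default filter on low counts, TMM scaling and the robust quasi-likelihood test, with Benjamini-Hochberg adjustment over all 17275 genes tested of 56748. The contrast was kidney minus the mean of heart, lung and liver, and kidney minus each. Library totals of 13271813 to 19949441 reads limit genes near 0 reads. Replicates of an organ differed by more than sampling noise and were all kept. The test was checked on simulated data with 200 changed genes, the same spread in every gene and no markers of other organs in any library. That check therefore does not cover the libraries that stood apart.

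The members and gene lists were chosen with earlier results of these data known. Genes were named by rule: the 16 with the largest smallest difference from any organ among those set apart and higher at 10 CPM or more in kidney, without overlap between libraries; the 10 set apart with the highest RPKM; the 12 set apart and lower with the largest smallest difference; the 10 transcription factors set apart most at 1 CPM or more; up to 4 members of each list by p, and those that show how a list divides; the Egf family; the 6 clearest genes shared with each organ; and genes of the 4-fold list called for Egf against vehicle. Alternatives were RLE scaling, library totals, DESeq2 1.42.0, voom of limma 3.58.1, no filter, no mitochondrial genes, all 68 libraries in the fit, the replicate number as a block and each library left out. Some named genes and a search of promoters are not reported here.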

Additional observations from a re-analysis of the deposited data

Results flagged for a closer look

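The long non-coding RNA ENSMUSG00000120343 had 8.93 CPM in kidney replicate 4 after Egf at 2 h, well above the other 3 Egf kidneys at 6.40, 6.43 and 5.97 CPM. The gap to the nearest of them was 0.843 of the range of the group, above Dixon's 95% critical value for 4 samples. It was the single such value in 28 groups over 14 genes, and chance passes this limit in about 1 in 20 groups.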

How the results depend on the processing

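Of 239 named genes, 219 were called against the mean and 208 kept their direction and their side of the threshold under every setting run. Counts of genes called, set apart and set apart 4-fold stayed within 1.5 times of the values given under DESeq2, voom, RLE scaling, no filter, no mitochondrial genes and all 68 libraries, while with library totals 430 genes were set apart and lower in place of 739. Leaving out each library in turn gave 5280 to 6424 genes higher, 2959 to 3984 lower, 1758 to 2182 set apart and higher, 585 to 799 set apart and lower, 786 to 899 set apart 4-fold and higher and 182 to 249 set apart 4-fold and lower. Without heart replicate 2 and lung replicate 3, 908 genes were set apart 4-fold and higher, 787 of the 804 among them. Without heart replicates 1 and 3 and kidney replicate 1, which leaves heart with 1 library assumed to vary like the others, 641 were, 612 of the 804 among them, and Egf was not set apart (8.44 ± 2.20); 219 were set apart 4-fold and lower, 140 of the 216 among them. Both were chosen after seeing the data. Whether same-numbered libraries share a mouse is not known. Correlations of their deviations were -0.203 to 0.322, with a median of 0.0328 over 18 pairs. Pairs of different number had -0.3346 to 0.2796, with a median of 0.0019 over 36 pairs. These values cannot decide whether mice were shared, as some libraries also carried markers of other organs. With the replicate number as a block, 797 genes were set apart 4-fold and higher and 207 lower. In that fit 2 of the straight proximal tubule genes were set apart in place of 5. Signs turned in 5 genes that were not called: the Hbegf log2 kidney minus mean was 0.1 with library totals and -0.35 to 0.04 with 1 library left out (0.04 without liver replicate 1), Egfr was 0.02 with library totals and 0.02 without heart replicates 1 and 3 and kidney replicate 1, Plin1 was 0.92 with voom and -1.51 to 1.1 with 1 library left out (1.1 without liver replicate 3), and with voom Adipoq was 0.67 and Acta2 0.06. For Egf against vehicle at 2 h, the 40 calls became 4 with the replicate block, 1 with only the 7 libraries fitted and 6 to 59 with 1 library left out; the lowest counts were 6 without vehicle replicate 2 or 3 and 7 without vehicle replicate 1, and 14 and 22 were called without Egf replicates 4 and 1. At 6 h leaving out 1 library gave 0 to 4 calls in place of 0. The cause of these changes was not tested. Genes near 0 reads in an organ are limited by depth.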
